A study of Arabidopsis thaliana with 5 samples.

Results

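The endosperm nuclei of reciprocal crosses were separated by the expression of 43 genes, in crosses between the *Arabidopsis thaliana* accessions Columbia (Col) and Landsberg *erecta* (Ler). The 43 genes were chosen by their measured values, in RPKM (reads per kilobase of transcript, corrected for sequencing depth), from 33602 genes. In 35 genes, the lower Col × Ler library had at least 2 RPKM and at least 3 times the RPKM of the highest Ler × Col library. In 8 genes, the lowest Ler × Col library had at least 2 RPKM and at least 3 times the RPKM of the higher Col × Ler library. All values between the crosses are therefore a description of the selected genes, and no test was run on them.

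RNA was sequenced from endosperm nuclei of 4-day-old seeds (4 days after pollination, DAP), isolated by INTACT, in 2 Col × Ler and 3 Ler × Col libraries. The mother is written first. Col × Ler seeds came from a *dde2* mother of the Col accession, which carried the INTACT transgenes *PHE1::NTF* and *PHE1::BirA* and was pollinated with wild-type Ler. Ler × Col seeds came from a *pistillata* (*pi-1*) mother of the Ler accession, pollinated with the transgenic Col line. Both mothers were male sterile. The transgene was thus inherited through the mother in Col × Ler and through the father in Ler × Col, and mother, mutation and transgene inheritance cannot be told apart in this comparison. The *PHE1* promoter drives the nuclear tag and the biotin ligase, so that nuclei are captured by their activity of this promoter. The libraries are numbered as in the deposited column names, replicates 2 and 3 of Col × Ler and replicates 1, 2 and 3 of Ler × Col, although the sample titles number the Col × Ler libraries 1 and 2. Wherever values of single libraries are listed, they follow this order.

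The endosperm nourishes the embryo and inherits more copies of the maternal genome than of the paternal one, so that exchanging the parents changes the dose of each accession's alleles. Expression differences between reciprocal crosses can concern genes of any class, including pseudogenes and transposon remnants, whose sequence and chromatin vary between accessions. The total RPKM used here adds up the alleles of both parents and holds no information on which allele was transcribed. The submitters' processing notes name TAIR10 as the only reference genome, and how evenly reads of both accessions aligned to it was not tested. The RNA was selected for poly(A) tails, which mature small RNAs, tRNAs and small nucleolar RNAs normally lack, so that values of such genes count whatever polyadenylated or carried-over transcripts covered them.

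The libraries differed in more than the cross. Replicate 2 of Col × Ler listed 12393 genes at 0 and replicate 2 of Ler × Col listed 10800, against 1822, 647 and 3293 genes in replicate 3 of Col × Ler and replicates 1 and 3 of Ler × Col. The depth, estimated from tRNA genes with so few reads that their RPKM rises in steps of 1 read, was between 12544671 and 28539342 reads. Across 25579 genes with at least 1 RPKM in at least 2 libraries, replicate 1 of Ler × Col correlated with the others at Pearson's r of 0.635 to 0.723 on log2(RPKM + 1), and the other pairs at 0.829 to 0.950. This replicate was prepared from a larger mass of siliques. The study's methods say that first replicates were set aside after contamination had been estimated, yet they count every Ler × Col replicate among the merged libraries. All deposited libraries are used here. The tag's own gene *PHE1*, an imprinted MADS-box gene of the endosperm, had 38.1 and 29.7 RPKM in Col × Ler, against 33.9, 51.0 and 40.5 RPKM in Ler × Col. *DDE2*, the allene oxide synthase of jasmonate synthesis, had 3.76 and 0.647 RPKM in Col × Ler, against 7.86, 0.164 and 2.55 RPKM in Ler × Col. *PI*, the homeotic gene of petals and stamens, had 0.146 and 2.78 RPKM in Col × Ler, against 8.68, 0.809 and 1.47 RPKM in Ler × Col. The levels of the mutated genes thus overlapped between the crosses. Seed coat genes were detected in every library, with the summed RPKM of 18 markers at 297 and 838 in Col × Ler, against 516, 210 and 678 in Ler × Col. The median log2 difference, Col × Ler minus Ler × Col, was 0.01 over the seed coat, -0.03 over the endosperm, -0.26 over the embryo and 0.90 over the photosynthesis markers. With 1 library left out in turn these medians were -0.72 to 0.90, -0.16 to 0.62, -0.68 to 0.50 and 0.12 to 1.68. Without replicate 1 of Ler × Col the endosperm and embryo medians were 0.30 and 0.50. Over the 25579 genes the median was 0.10 with all libraries and 0.44 without that replicate. None of the 43 genes was among the 18 seed coat, 14 endosperm, 8 embryo, 8 photosynthesis and 12 jasmonate genes listed, and the part of other cell types in the 43 genes was not tested.

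The 35 genes higher in Col × Ler were 0.104% of all genes, and the 8 genes higher in Ler × Col were 0.0238%. As background, the values of the 2 crosses did not overlap in 4.75% of genes with Col × Ler higher and in 1.89% with Ler × Col higher, whatever the size of the gap. In the 35 genes, the lower Col × Ler library had 3.06 to 61.1 times the RPKM of the highest Ler × Col library, with a median of 3.88. Only 10 of these 35 genes reached 5 times and 5 reached 10 times. In the 8 genes, the lowest Ler × Col library had 3.52 to 70.9 times the RPKM of the higher Col × Ler library, with a median of 12.0, and 6 of 8 genes reached 5 times. The difference of mean log2(RPKM + 1), Col × Ler minus Ler × Col, had a median of 2.42 over the 35 genes and of -2.29 over the 8 genes, against 0.10 over the 25579 genes. In such bulk samples, fewer cells of a type and less RNA per cell cannot be told apart. All 43 genes passed the filter of 1 RPKM in 2 libraries, which their selection on at least 2 RPKM in 1 cross had fixed.

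**Figure D1:**
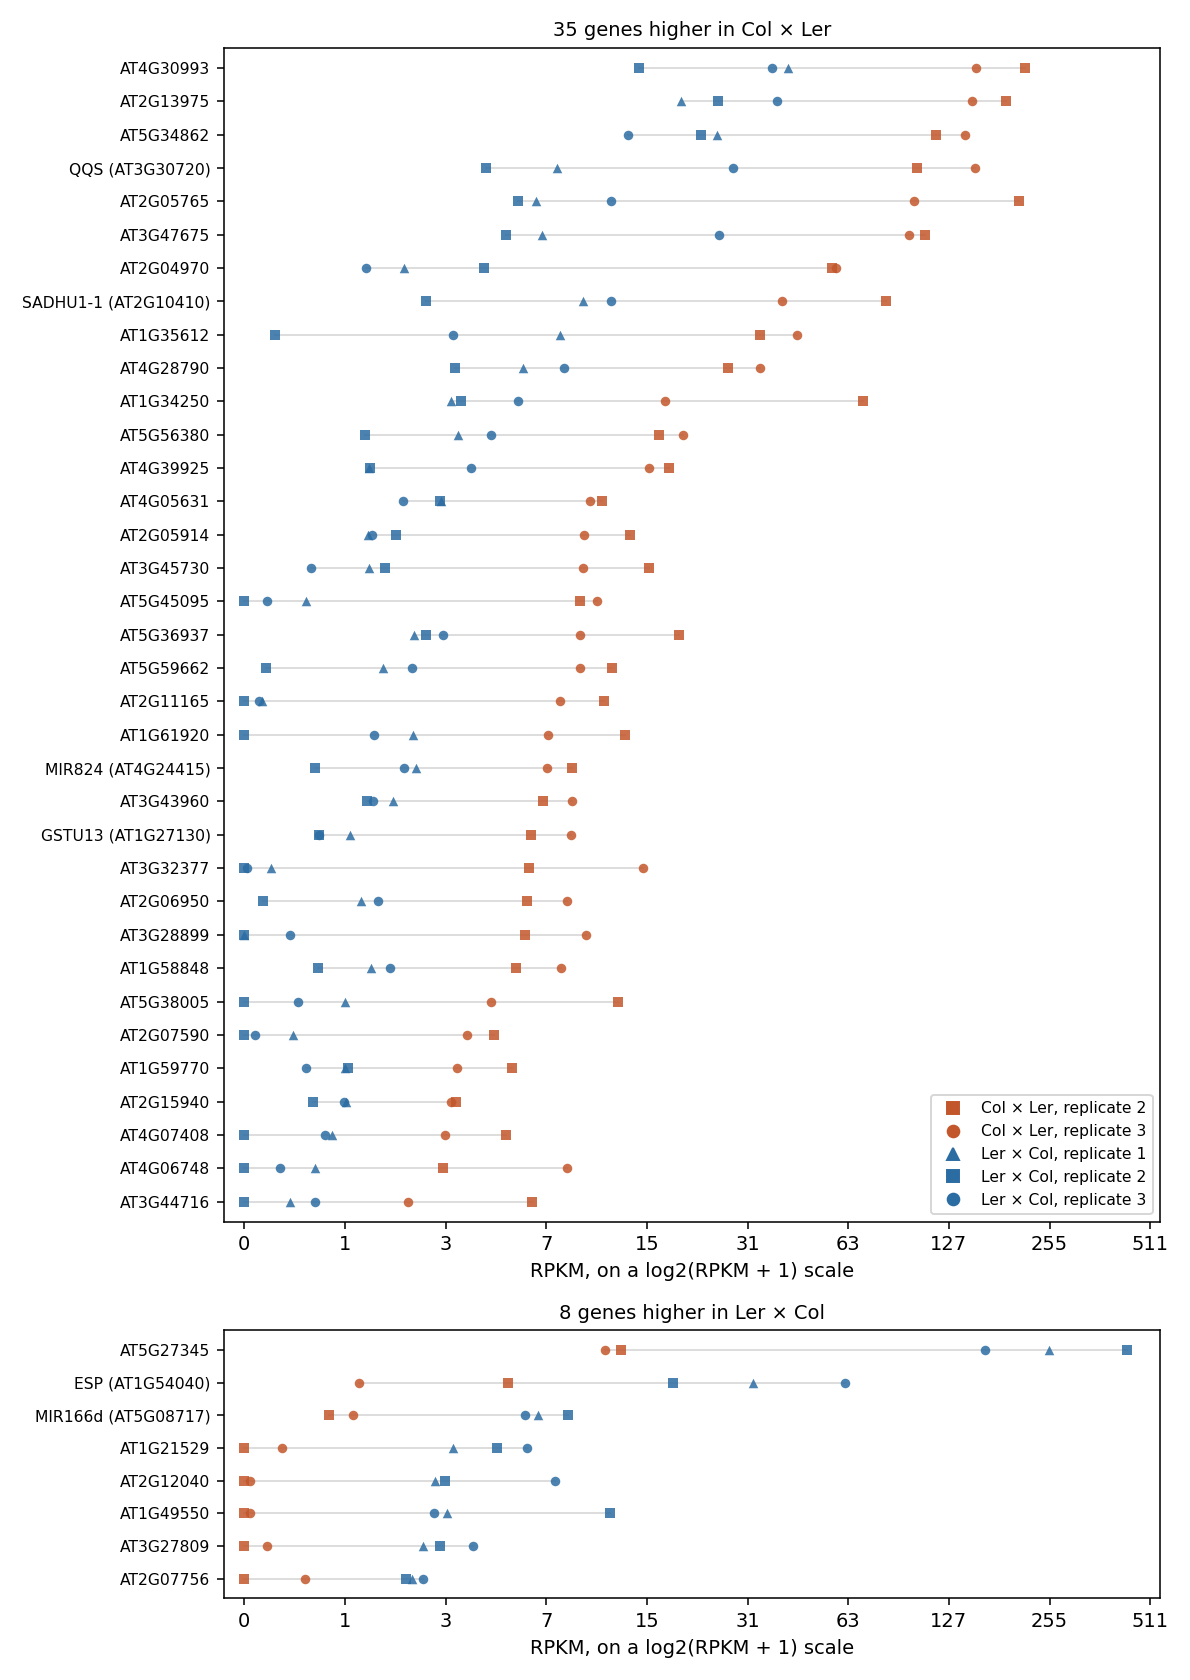
RPKM of the 43 genes in each library, on a log2(RPKM + 1) scale, for the 35 genes higher in Col × Ler (upper panel) and the 8 genes higher in Ler × Col (lower panel), ordered by the lowest value in the higher cross. Each point is 1 library, coloured by cross and shaped by replicate, and the grey line spans the 5 values. The gap between the colours follows from the selection, and the points within a colour show the spread within a cross, such as the 7.82, 0.234 and 3.20 RPKM of AT1G35612 in Ler × Col.

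**Figure D2:**
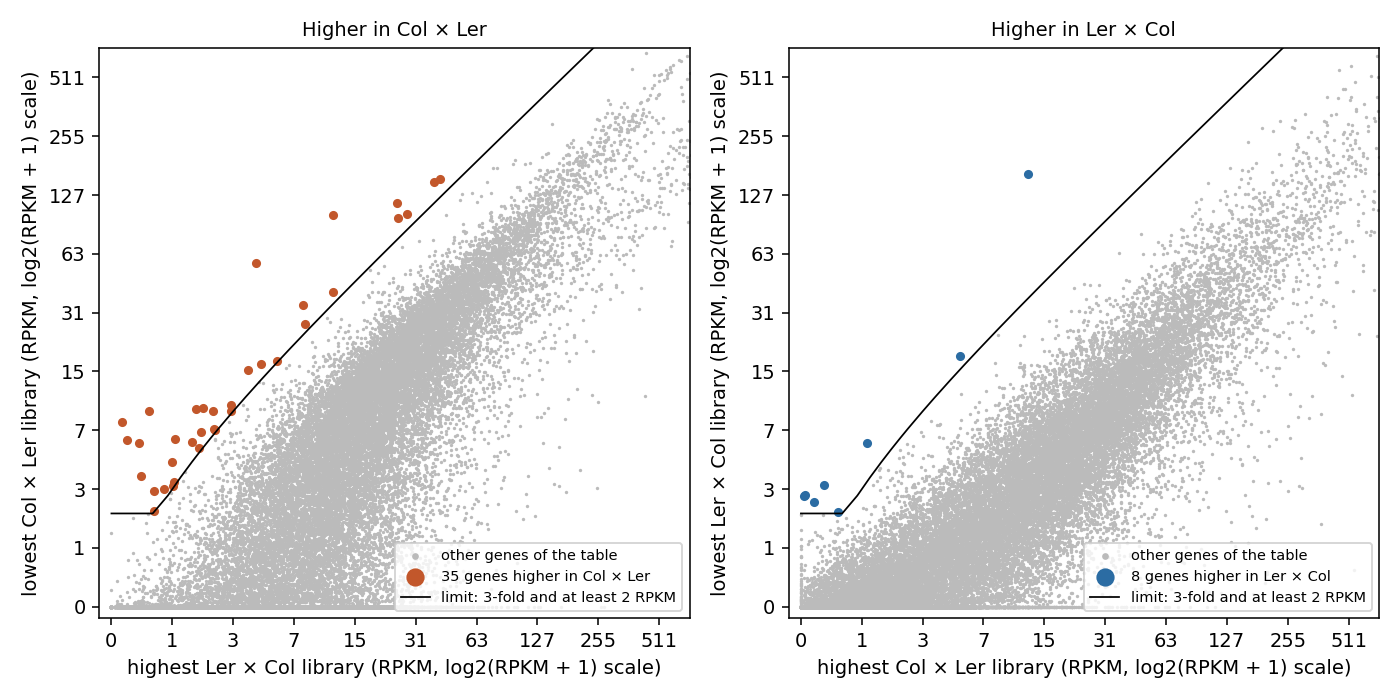
Lowest library of the higher cross (vertical axis) against the highest library of the lower cross (horizontal axis), in RPKM on log2(RPKM + 1) scales, for Col × Ler higher (left) and Ler × Col higher (right). Grey points are other genes of the table, those beyond the axes not being shown, and the black line is the limit of 3-fold and 2 RPKM. Most of the 35 coloured genes on the left lie close to the line, with a median ratio of 3.88, and 1 of the 8 on the right, AT5G27345, stands far above it at 163 RPKM in its lowest Ler × Col library.

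The sequences of the small RNA genes among the 43 are given first, because their names describe a mature product, while the RPKM counted reads over the whole annotated gene. Mature miRNAs are shown with the seed (bases 2 to 8) in capitals. For the small nucleolar RNA (snoRNA) and its most similar copy, the letters TGATGA and CTGA, those of the C and D boxes of box C/D snoRNAs, are in capitals wherever they occur on the gene's strand. In the tRNA, capitals mark the GCC triplet of the anticodon. Coordinates and sequences are those of RefSeq's TAIR10.1 assembly.
miR824-5p (chr4:12625128-12625148, + strand): uAGACCAUuugugagaaggga
miR824-3p (chr4:12625721-12625741, + strand): cCUUCUCAucgauggucuaga
miR166d (chr5:2840708-2840728, + strand): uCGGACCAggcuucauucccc
snoRNA AT2G05765 (chr2:2184567-2184645, - strand): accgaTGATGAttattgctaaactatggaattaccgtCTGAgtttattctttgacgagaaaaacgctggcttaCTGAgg
snoRNA AT2G17295 (chr2:7520942-7521021, + strand): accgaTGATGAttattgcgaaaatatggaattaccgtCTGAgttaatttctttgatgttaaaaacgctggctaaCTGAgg
tRNA-Gly AT2G07756 (chr2:3444363-3444434, - strand): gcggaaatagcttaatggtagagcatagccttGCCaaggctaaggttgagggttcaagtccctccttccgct

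Among the genes higher in Col × Ler, the snoRNA gene AT2G05765 (79 bases) had one of the widest separations. Box C/D snoRNAs guide the methylation of ribosomal and other RNAs. AT2G05765 had 206 and 99.9 RPKM in Col × Ler, against 6.44, 5.61 and 11.5 RPKM in Ler × Col. An estimated 204 and 210 reads lay behind the Col × Ler values, and 13, 9 and 26 reads behind those of Ler × Col. Its copy AT2G17295, shown above and 90% identical over its length, had 0 and 1.41 RPKM in Col × Ler, against 2.93, 0 and 0 RPKM in Ler × Col. Thus the copy with the same box letters had at most 2.93 RPKM, and its crosses overlapped.

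*MIR824* (AT4G24415) encodes the precursor of miR824, whose known target is the MADS-box gene *AGL16*. It had 8.53 and 7.06 RPKM in Col × Ler, against 2.26, 0.631 and 2.00 RPKM in Ler × Col, with its lower Col × Ler value 3.13 times its highest Ler × Col value. Neither arm's mature sequence or seed occurred in any other of the 327 annotated miRNA genes. *AGL16* had 2.64 and 14.3 RPKM in Col × Ler, against 21.0, 2.86 and 10.4 RPKM in Ler × Col, so that its values overlapped. Mature miR824 was not measured in these libraries.

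The remaining 3 RNA genes higher in Col × Ler are long non-coding transcripts. AT2G05914, antisense to the uncharacterized gene AT2G05915, had 13.2 and 9.34 RPKM in Col × Ler, against 1.35, 1.84 and 1.41 RPKM in Ler × Col. AT2G05915 itself had 6.13 and 4.28 RPKM in Col × Ler, against 2.67, 1.68 and 3.39 RPKM in Ler × Col. AT5G59662, antisense to the leucine-rich repeat kinase gene AT5G59660, had 11.6 and 9.07 RPKM in Col × Ler, against 1.61, 0.165 and 2.17 RPKM in Ler × Col. Its sense partner AT5G59660 lay just outside the 3-fold limit, at 3.86 and 4.61 RPKM in Col × Ler, against 1.31, 0.0192 and 0.931 RPKM in Ler × Col. Whether reads were counted by strand is not given in the sources used here, so that the reads of such partners cannot be told apart. AT5G38005, a gene of unknown function, had 12.1 and 4.48 RPKM in Col × Ler, against 1.00, 0 and 0.450 RPKM in Ler × Col.

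Protein-coding genes made up 16 of the 35 genes higher in Col × Ler. *QQS* (*QUA-QUINE STARCH*, AT3G30720, chr3:12349047-12349933), an orphan gene known from *Arabidopsis* that affects starch content and the partition of carbon and nitrogen, was among the most abundant. It had 102 and 152 RPKM in Col × Ler, against 7.61, 4.28 and 27.9 RPKM in Ler × Col. The gap was narrowed by replicate 3 of Ler × Col, the highest of its cross, whereas the other 2 Ler × Col libraries were below 8 RPKM. The log2 difference of *QQS* was 3.52 with all libraries and 4.22 without replicate 3 of Ler × Col. *QQS* was also the only one of the 43 genes for which a search of the genome returned no second match.

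Several of the protein-coding genes are known or predicted enzymes. AT4G30993, which encodes a calcineurin-like metallophosphoesterase, had the highest level of the 35 genes, with 215 and 153 RPKM in Col × Ler, against 41.2, 14.1 and 37.0 RPKM in Ler × Col. *GSTU13* (AT1G27130) belongs to the tau class of glutathione S-transferases, which conjugate glutathione to reactive compounds. Its values were 6.19 and 8.48 RPKM in Col × Ler, against 1.07, 0.674 and 0.672 RPKM in Ler × Col. AT3G43960, a putative cysteine proteinase linked to root hair growth under phosphate deficiency, had 6.82 and 8.55 RPKM in Col × Ler, against 1.79, 1.32 and 1.43 RPKM in Ler × Col. In *GSTU13* and AT3G43960 the Ler × Col libraries lay close together, and all 3 were low.

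Of the 27 tau class genes in the table, 25 were detected. Both Col × Ler values were above all Ler × Col values in 3 of the 25, the selected *GSTU13* itself, *GSTU23* and *GSTU26*, and none showed the opposite. Among all detected genes these shares were 6.17% and 1.92%. The median difference of mean log2(RPKM + 1) over the 25 genes was -0.31. Without replicate 1 of Ler × Col it was 0.49, with 17 of the 25 genes above 0. For all detected genes the median was 0.10, and 0.44 without that library. *GSTU14*, the nearest relative of *GSTU13* by sequence, had 0 and 0.103 RPKM in Col × Ler, against 1.44, 0 and 0.191 RPKM in Ler × Col.

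Predicted regulators formed another group. AT4G28790, a basic helix-loop-helix protein, had 27.1 and 33.8 RPKM in Col × Ler, against 5.83, 3.28 and 8.06 RPKM in Ler × Col. AT4G39925, which carries an AT hook, a motif that binds AT-rich DNA, had 17.7 and 15.2 RPKM in Col × Ler, against 1.37, 1.38 and 3.76 RPKM in Ler × Col. AT5G56380, an F-box protein of the class that selects substrates for ubiquitin ligases, had 16.4 and 19.4 RPKM in Col × Ler, against 3.36, 1.295 and 4.47 RPKM in Ler × Col. In all 3 genes, the 2 Col × Ler libraries differed by less than the gap to Ler × Col.

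AT3G47675, annotated as a leucine-zipper protein, had 107 and 96.6 RPKM in Col × Ler, against 6.75, 5.07 and 25.2 RPKM in Ler × Col. It overlaps the DNA-binding protein gene AT3G47680 on the same strand over 2180 bases. AT3G47680 had 14.5 and 67.3 RPKM in Col × Ler, against 7.75, 1.67 and 23.1 RPKM in Ler × Col. The values of the partner overlapped between the crosses, and how reads in the shared bases were assigned is not given in the sources used here.

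The disease resistance gene AT1G58848, of the CC-NBS-LRR class of immune receptors, had 5.50 and 7.86 RPKM in Col × Ler, against 1.39, 0.656 and 1.72 RPKM in Ler × Col. A second gene, AT1G59218, is 99.98% identical to it over all 5363 bases. AT1G59218 had 2.13 and 3.70 RPKM in Col × Ler, against 1.47, 0.684 and 0.716 RPKM in Ler × Col. Reads of such copies can hardly be told apart, so that the level of each gene alone is uncertain.

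Uncharacterized proteins made up 7 of the 16 protein-coding genes (43.8%), compared with 5.65% of the 15267 protein-coding genes with at least 2 RPKM in both Col × Ler libraries. AT5G45095 was the most widely separated of them, with 9.09 and 10.4 RPKM in Col × Ler, against 0.535, 0 and 0.167 RPKM in Ler × Col. AT3G45730 had 15.2 and 9.29 RPKM in Col × Ler, against 1.36, 1.63 and 0.581 RPKM in Ler × Col. AT1G61920 had 12.8 and 7.12 RPKM in Col × Ler, against 2.20, 0 and 1.44 RPKM in Ler × Col. These genes were low but detected in replicates 1 and 3 of Ler × Col, and AT3G45730 was also detected in replicate 2, its highest Ler × Col library. AT4G05631 was present in all libraries, at 10.8 and 9.80 RPKM in Col × Ler, against 2.88, 2.85 and 1.99 RPKM in Ler × Col. AT3G44716, of the 35 genes the closest to the 2 RPKM limit, had 6.23 and 2.09 RPKM in Col × Ler, against 0.371, 0 and 0.623 RPKM in Ler × Col.

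The other 2 uncharacterized genes lie within genes on the opposite strand. AT3G28899 had 5.90 and 9.55 RPKM in Col × Ler, against 0, 0 and 0.371 RPKM in Ler × Col. The ribosomal protein L34e gene AT3G28900, which contains it, had 64.4 and 30.6 RPKM in Col × Ler, against 10.4, 14.7 and 31.6 RPKM in Ler × Col. AT4G07408 had 5.06 and 2.98 RPKM in Col × Ler, against 0.828, 0 and 0.742 RPKM in Ler × Col, and lies within *PCN*, a WD-40 repeat gene. *PCN* had 36.5 and 47.2 RPKM in Col × Ler, against 9.14, 13.8 and 25.4 RPKM in Ler × Col. Each small gene thus sat under a more abundant partner, and *PCN* was itself higher in both Col × Ler libraries than in any Ler × Col library. At least 7 and 24 reads lay behind the Col × Ler values of AT3G28899, and at least 12 and 15 behind those of AT4G07408.

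Pseudogenes made up 14 of the 35 genes higher in Col × Ler (40.0%). The label is that of the annotation and also covers retrotransposon elements such as *SADHU1-1*. Among the 15948 genes with at least 2 RPKM in both Col × Ler libraries, 1.60% were pseudogenes and 95.7% protein-coding, and pseudogenes were 14.4% of all genes of the table. Protein-coding genes made up 45.7% of the 35 genes and RNA genes 14.3%. Without replicate 1 of Ler × Col, which stood apart from the other libraries, 184 genes passed the same limits, of which 34 (18.5%) were pseudogenes and 127 (69.0%) were protein-coding. The share of pseudogenes thus remained above that of genes at the same floor but was smaller.

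**Figure D3:**
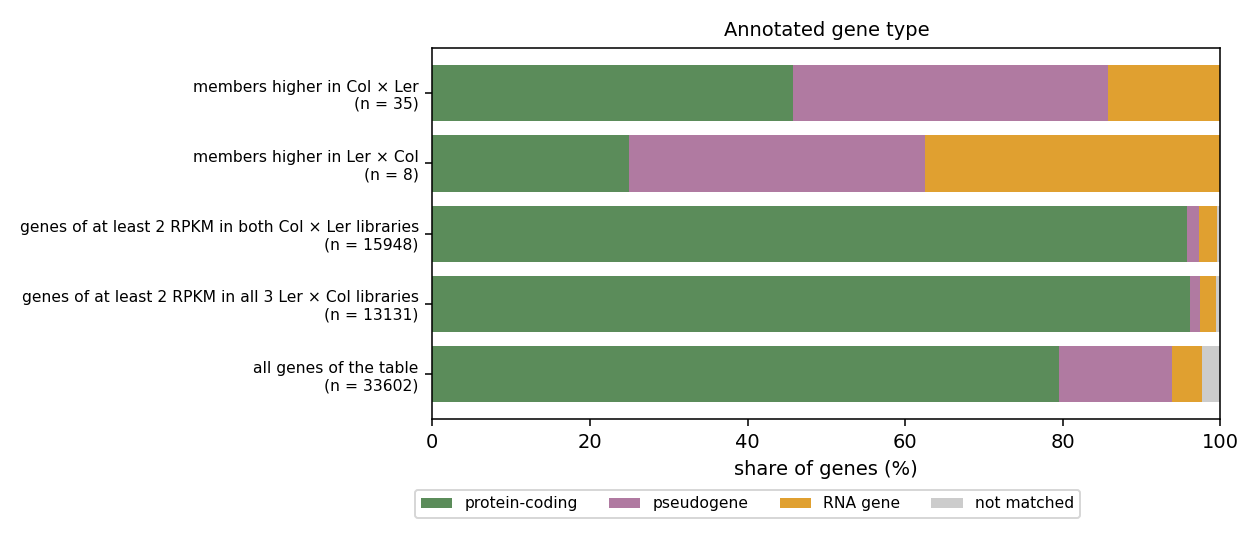
Share of genes by annotated type, in percent, for the 35 genes higher in Col × Ler, the 8 genes higher in Ler × Col, the genes that reach the 2 RPKM floor in each cross, and all genes of the table. Pseudogenes make up 40.0% and 37.5% of the separated genes, compared with 1.60% and 1.34% of genes at the floor of Col × Ler and Ler × Col.

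By the words of their annotation, 2 of the 35 genes (5.71%) were transposon-related. The share was 0.29% among genes with at least 2 RPKM in both Col × Ler libraries. Whether other genes labelled as pseudogenes derive from transposons was not tested. *SADHU1-1* (AT2G10410) is annotated as a member of the Sadhu retrotransposon family. Sadhu elements are short non-autonomous retroposons of *Arabidopsis* whose expression is known to differ between accessions through DNA methylation. *SADHU1-1* had 81.8 and 39.6 RPKM in Col × Ler, against 9.31, 2.48 and 11.5 RPKM in Ler × Col. *SADHU3-2* missed the 3-fold limit, with 163 and 51.7 RPKM in Col × Ler, against 18.1, 2.86 and 2.27 RPKM in Ler × Col. In *SADHU3-2*, the highest Ler × Col value was in replicate 1. *SADHU1-2* had 56.6 and 56.1 RPKM in Col × Ler, against 19.4, 11.9 and 41.7 RPKM in Ler × Col. Of 14 detected Sadhu elements, 4 were higher in both Col × Ler libraries than in all Ler × Col libraries, including the selected *SADHU1-1*, and none showed the opposite, against 6.17% and 1.92% of all detected genes. The median log2 difference over the 14 was 0.42, and -0.03 without replicate 2 of Ler × Col. All detected genes had a median of 0.10, and of -0.35 without that library. The list of Sadhu elements was drawn up after *SADHU1-1* was known to be separated.

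**Figure D4:**
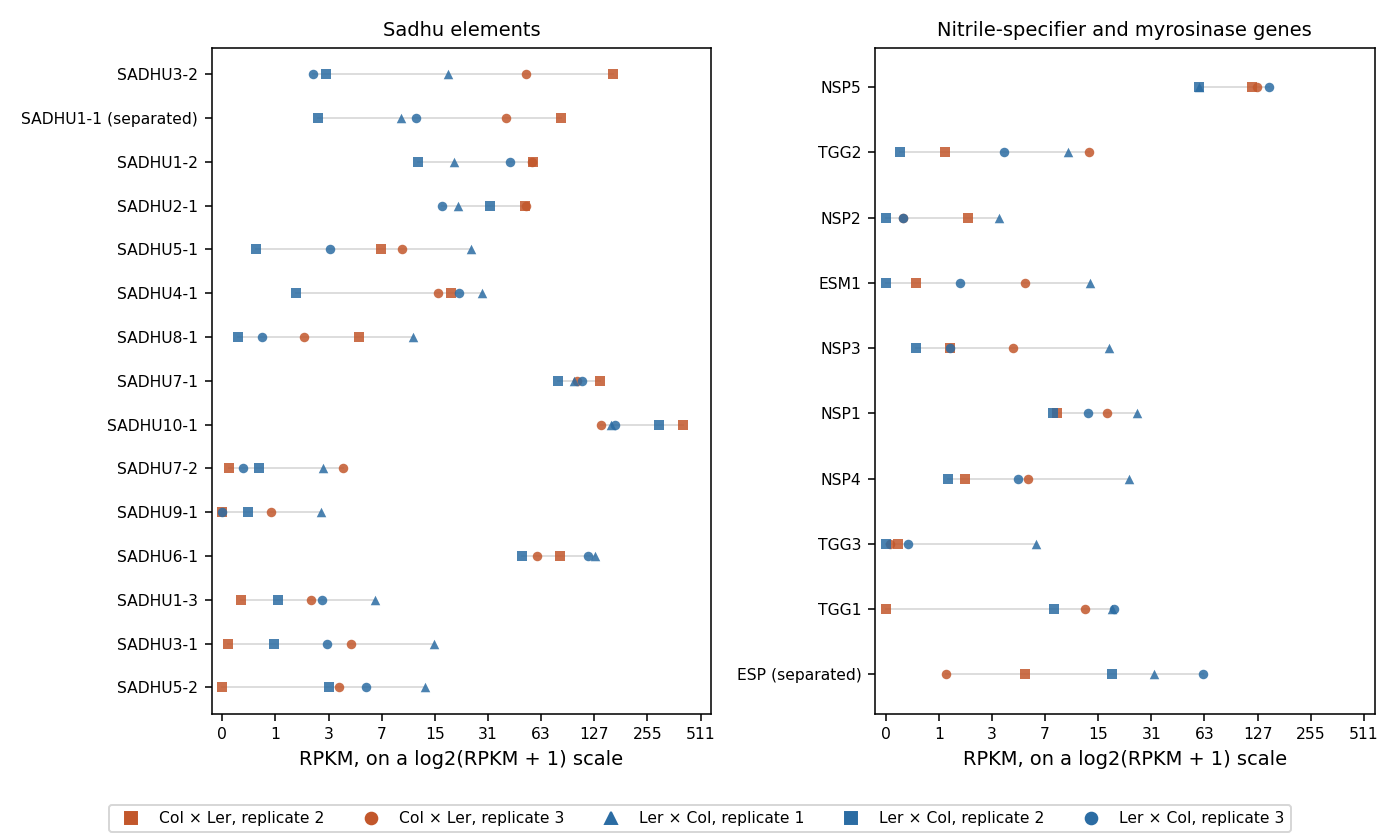
RPKM in each library, on a log2(RPKM + 1) scale, of the 15 annotated Sadhu elements (left) and of 10 nitrile-specifier, epithiospecifier and myrosinase genes (right), ordered by the log2 difference. Points are coloured by cross and shaped by replicate, and "separated" marks *SADHU1-1* and *ESP*. Both separated genes have relatives whose 2 crosses overlap, such as *SADHU10-1* and *NSP1*.

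Of the other pseudogenes, AT2G04970 had nearly the same level in both Col × Ler libraries, 56.2 and 57.7 RPKM, against 2.00, 4.22 and 1.31 RPKM in Ler × Col, a mean of 56.9 ± 1.04 RPKM (SD, n = 2) against 2.51 ± 1.52 RPKM (SD, n = 3). Its log2 difference of 4.13 was the highest of the 35 genes. AT2G11165 had the highest ratio of the 35 genes, with 10.9 and 7.79 RPKM in Col × Ler, against 0.128, 0 and 0.105 RPKM in Ler × Col. An estimated 547 and 827 reads lay behind its Col × Ler values, and 13, 0 and 12 reads behind those of Ler × Col. AT3G32377, annotated as a transcribed pseudogene, had 6.09 and 14.6 RPKM in Col × Ler, against 0.199, 0 and 0.0198 RPKM in Ler × Col. These last 2 genes were nearly absent from all Ler × Col libraries.

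Other pseudogenes were detected in both crosses at unequal levels. AT2G13975 had 189 and 149 RPKM in Col × Ler, against 19.2, 25.1 and 38.3 RPKM in Ler × Col. AT5G34862 had 116 and 142 RPKM in Col × Ler, against 24.9, 22.2 and 13.1 RPKM in Ler × Col. AT1G35612, a pseudogene of the Ulp1 protease family, had 33.8 and 43.9 RPKM in Col × Ler, against 7.82, 0.234 and 3.20 RPKM in Ler × Col. Within Ler × Col, AT1G35612 was lowest in replicate 2. That library listed 10 of the 35 genes at 0, and 10800 of the 33602 genes of the table. AT4G06748, annotated as a transcribed pseudogene, had 2.92 and 8.26 RPKM in Col × Ler, against 0.631, 0 and 0.283 RPKM in Ler × Col. Its best match in the genome was *TSA1* (TSK-associating protein 1), 84.2% identical over 53.5% of the gene. *TSA1* had 0 and 1.43 RPKM in Col × Ler, against 5.08, 0.745 and 2.18 RPKM in Ler × Col.

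The remaining 6 pseudogenes were AT1G34250, AT1G59770, AT2G06950, AT2G07590, AT2G15940 and AT5G36937. AT1G34250 had the lowest ratio of the 35 genes, 3.06, with 69.7 and 17.1 RPKM in Col × Ler, against 3.16, 3.45 and 5.58 RPKM in Ler × Col. AT2G15940 and AT5G36937 followed, with ratios of 3.10 and 3.11. AT2G15940 also had the lowest log2 difference of the 35, 1.19. AT2G07590 had 4.59 and 3.64 RPKM in Col × Ler, against 0.394, 0 and 0.0784 RPKM in Ler × Col. AT2G06950 and AT1G59770 had mean levels of 7.12 and 4.32 RPKM in Col × Ler, against 0.958 and 0.861 RPKM in Ler × Col. Just outside the 3-fold limit lay the uncharacterized AT3G44440, which missed it in the third digit, AT5G59660 at a ratio of 2.94 and the disease resistance gene AT4G19510 at 2.88. Below the 2 RPKM floor, AT2G27402 came closest, with a lower Col × Ler value just short of it, followed by AT5G28141 at 1.83 and AT4G01920 at 1.69 RPKM.

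On the map, 9 of the 35 genes (25.7%) lie on chromosome 2 between positions 1745973 and 6944794, which flank the centromere, and 7 of the 9 are pseudogenes. This stretch was chosen by the members themselves. It holds 3.74% of all genes of the table and 1.25% of the 15948 genes at the same floor, and 62.4% of its genes are pseudogenes. Among the 184 genes that passed without replicate 1 of Ler × Col, 14 (7.61%) were in this stretch. No member lay within 5 genes of another member of the same direction.

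Of the genes next to the 35 members, 39 of 70 were detected, and their median log2 difference was 0.60, against 0.10 over all detected genes. Without replicate 2 of Ler × Col these medians were 0.0060 and -0.35. In 8 of these 39 (20.5%) both Col × Ler values were above all Ler × Col values, compared with 6.17% of the 25579 genes. The 8 include AT2G05915, AT5G59660, *PCN* and a pseudogene that overlaps *SADHU1-1*, which share bases with a member. AT1G27120, next to *GSTU13* without overlap, had 27.7 and 18.1 RPKM in Col × Ler, against 4.58, 5.41 and 15.6 RPKM in Ler × Col.

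Of the 35 genes, 7 have a copy elsewhere of at least 90% identity over at least 80% of their length, as do 2 of the 8 genes higher in Ler × Col. Copies were searched for the members only, so that these counts have no share over all genes to be set against. AT5G34862 has 11 such copies. Its best match, AT5G30269, had 0.153 and 0.703 RPKM in Col × Ler, against 2.35, 0.186 and 0.211 RPKM in Ler × Col. The best match of AT2G04970 was AT2G14140, 96.8% identical over 62.1% of the gene, with 14.5 and 10.4 RPKM in Col × Ler, against 4.14, 5.78 and 1.60 RPKM in Ler × Col. How reads with several places in the genome were counted is not given in the sources used here.

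Among the 8 genes higher in Ler × Col, the pseudogene AT5G27345 (chr5:9641505-9643917) was by far the most abundant. It had 12.4 and 11.0 RPKM in Col × Ler, against 255, 435 and 163 RPKM in Ler × Col, a mean of 11.7 ± 0.972 RPKM (SD, n = 2) against 284 ± 139 RPKM (SD, n = 3). At least 261 and 492 reads lay behind the Col × Ler values, and at least 10959, 14899 and 7837 reads behind those of Ler × Col. Its best match in the genome, the pseudogene AT1G78095, is 87.4% identical and had 2.26 and 1.298 RPKM in Col × Ler, against 6.11, 12.5 and 2.31 RPKM in Ler × Col. AT1G78095 was thus far lower, yet highest in the same library, replicate 2 of Ler × Col.

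*ESP* (AT1G54040), the epithiospecifier protein, directs the breakdown of glucosinolates by myrosinases towards epithionitriles and nitriles. It is a known locus of natural variation in *Arabidopsis*, active in Ler and weakly expressed in Col. *ESP* had 5.15 and 1.20 RPKM in Col × Ler, against 32.2, 18.1 and 61.4 RPKM in Ler × Col. Its ratio of 3.52 was the lowest of the 8 genes, and the 3 Ler × Col values themselves differed more than 3-fold. Another 9 genes of the nitrile-specifier and myrosinase group, listed after *ESP* was known to be separated, did not share the separation. *TGG1*, a myrosinase, had 0 and 12.5 RPKM in Col × Ler, against 18.3, 7.94 and 18.7 RPKM in Ler × Col, and *NSP5*, a nitrile-specifier protein, had 118 and 125 RPKM in Col × Ler, against 58.5, 58.2 and 148 RPKM in Ler × Col. Both genes had overlapping values.

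The 200 bases upstream of the annotated starts of *ESP* and *QQS* are given for the 2 best-known genes, 1 for each direction, with TATAAA on the gene's strand in capitals. The letters occurred in these windows of 28.3% of 27444 nuclear protein-coding genes and of 5 of the 18 protein-coding members. They are present in the window of *ESP* and not in that of *QQS*.
ESP (chr1:20173950-20174149, - strand): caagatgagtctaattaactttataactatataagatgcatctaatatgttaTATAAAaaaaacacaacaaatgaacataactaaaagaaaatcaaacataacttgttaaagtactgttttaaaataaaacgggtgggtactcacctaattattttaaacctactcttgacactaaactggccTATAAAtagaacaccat
QQS (chr3:12348847-12349046, + strand): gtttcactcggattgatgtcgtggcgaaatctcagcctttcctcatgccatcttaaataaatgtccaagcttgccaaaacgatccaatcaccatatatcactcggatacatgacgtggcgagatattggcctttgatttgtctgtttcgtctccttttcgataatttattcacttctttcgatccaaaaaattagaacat

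*MIR166d* (AT5G08717) encodes a precursor of miR166, which targets transcripts of the HD-ZIP III transcription factors that set the polarity of organs. It had 0.789 and 1.12 RPKM in Col × Ler, against 6.58, 8.28 and 5.90 RPKM in Ler × Col. These values rest on few reads, at least 1 and 3 in Col × Ler and at least 17 in each Ler × Col library. The mature sequence shown above is identical in the other 6 *MIR166* genes, and 8 other miRNA genes, of the miR165 and miR166 families, share its seed. *MIR166a* had 0 and 4.42 RPKM in Col × Ler, against 14.7, 0 and 5.67 RPKM in Ler × Col, and the neighbouring *MIR166c* had 0 RPKM in both Col × Ler libraries, against 2.54, 0 and 0 RPKM in Ler × Col. *MIR166d* was the only *MIR166* gene whose crosses were separated.

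The HD-ZIP III targets of miR166 followed no common direction. *PHV* had 11.3 and 23.3 RPKM in Col × Ler, against 9.23, 2.04 and 10.8 RPKM in Ler × Col, so that its crosses did not overlap by a narrow margin. *REV* had 485 and 112 RPKM in Col × Ler, against 117, 431 and 135 RPKM in Ler × Col, with high values in replicate 2 of both crosses. The other 3 genes, *PHB*, *ATHB-15* and *HB-8*, had overlapping values.

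The remaining 5 genes higher in Ler × Col were all listed at 0 in replicate 2 of Col × Ler, as were 12393 of the 33602 genes of the table. In replicate 3 of Col × Ler they had at most 0.522 RPKM. The non-coding RNA gene AT1G21529 had 0 and 0.299 RPKM in Col × Ler, against 3.21, 4.69 and 5.99 RPKM in Ler × Col. An estimated 0 and 6 reads lay behind its Col × Ler values, and 62, 72 and 129 reads behind those of Ler × Col. The pseudogene AT1G49550 had 0 and 0.0380 RPKM in Col × Ler, against 3.04, 11.4 and 2.69 RPKM in Ler × Col. The pseudogene AT2G12040 had 0 and 0.0429 RPKM in Col × Ler, against 2.72, 2.98 and 7.52 RPKM in Ler × Col, and has 31 copies of at least 90% identity. For AT1G49550 and AT2G12040, a single read accounted for the value of replicate 3 of Col × Ler.

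AT3G27809, an uncharacterized gene, had 0 and 0.167 RPKM in Col × Ler, against 2.43, 2.84 and 3.82 RPKM in Ler × Col. It lies on the opposite strand within *MYB21*, a transcription factor of petals and stamens that acts downstream of jasmonate. *MYB21* had 0 and 0.140 RPKM in Col × Ler, against 2.99, 1.19 and 1.90 RPKM in Ler × Col. Both partners were thus higher in all Ler × Col libraries than in both Col × Ler libraries. Within Ler × Col, *MYB21* was highest in replicate 1, where AT3G27809 was lowest. Whether reads were counted by strand is not given in the sources used here, so that the reads of these partners cannot be told apart. The listed jasmonate genes had a median log2 difference of -0.67 over 12 genes, which was -0.10 without replicate 1 of Ler × Col. The median over all detected genes was 0.10, and 0.44 without that library, so that the jasmonate median was below it both times. Of the 12, 2 were higher in all Ler × Col libraries than in both Col × Ler libraries, as were 1.92% of the 25579 detected genes. One was *VSP1*, a vegetative storage protein induced by jasmonate, with 0 and 1.58 RPKM in Col × Ler, against 14.8, 1.98 and 11.0 RPKM in Ler × Col. The other was *JMT*, jasmonate methyltransferase, with 1.71 and 3.71 RPKM in Col × Ler, against 22.9, 7.49 and 11.5 RPKM in Ler × Col. The Col × Ler mother carried the *dde2* mutation, and its part in these values was not tested.

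The tRNA-Gly gene AT2G07756, shown above, rests on the fewest reads of all members. It had 0 and 0.522 RPKM in Col × Ler, against 2.17, 2.05 and 2.43 RPKM in Ler × Col, from an estimated 0 and 1 reads in Col × Ler and 4, 3 and 5 reads in Ler × Col. The gene lies in the stretch of chromosome 2 that holds an insertion of mitochondrial DNA, and its 72 bases are identical to those of the mitochondrial tRNA-Gly gene. It lies within the *ccmF*-like gene AT2G07815, which had 9.62 and 4.94 RPKM in Col × Ler, against 4.72, 7.38 and 6.09 RPKM in Ler × Col. At this depth, a difference of so few reads cannot be told from counting error.

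The size of both sets depended on each library. With 1 library left out, the number of genes that passed with Col × Ler higher ranged from 40 (without replicate 2 of Ler × Col) to 306 (without replicate 3 of Col × Ler), and the number with Ler × Col higher from 12 (without replicate 1 of Ler × Col) to 484 (without replicate 3 of Col × Ler). Leaving out a library can only loosen the limits, so that all 43 genes passed each time by construction. Without replicate 2 of Col × Ler, 177 and 18 genes passed, and without replicate 3 of Ler × Col, 255 and 70 genes. When the 5 libraries were quantile-normalized, 44 genes were higher in Col × Ler and 17 in Ler × Col, among which were 15 of the 35 and 2 of the 8 genes, *ESP* and AT5G27345. The 3 genes of Ler × Col with at least 5 RPKM in each of its libraries were *ESP*, *MIR166d* and AT5G27345.

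**Figure D5:**
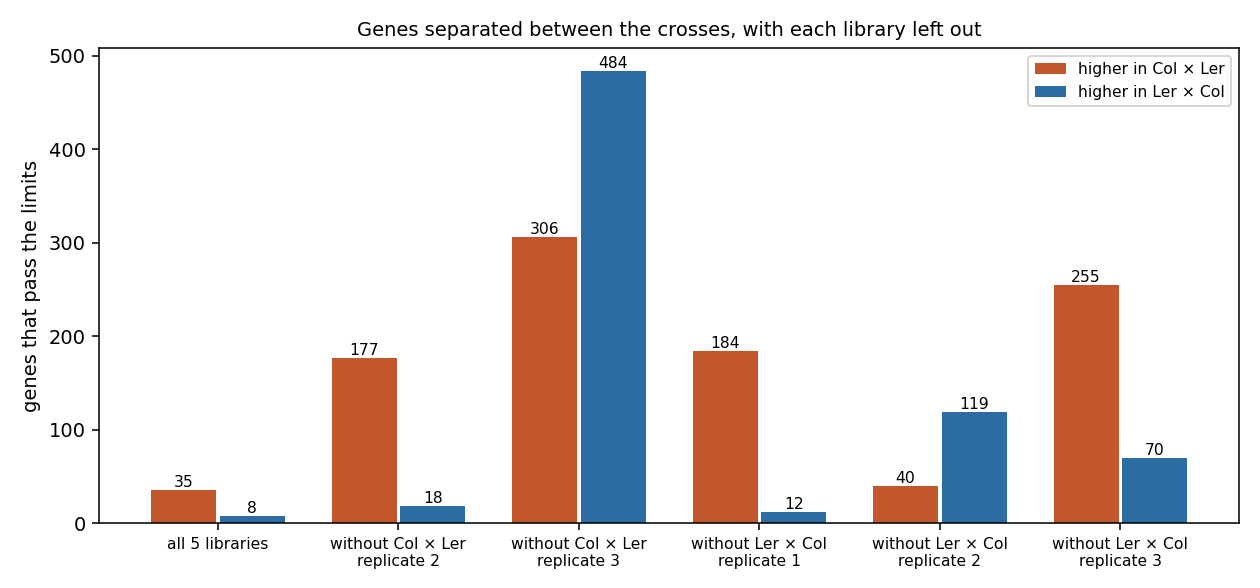
Number of genes that pass the limits of 3-fold and 2 RPKM in each direction with all 5 libraries and with each library left out. The counts of 35 and 8 with all libraries are the lowest, and the largest counts, 306 and 484, were obtained without replicate 3 of Col × Ler.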

How the data were processed

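The authors deposited 1 table of RPKM values for 33602 genes and 5 libraries, made from paired-end reads of poly(A)-selected RNA. The submitters' processing notes name TopHat2 version 2.1 and the TAIR10 genome. The counting method, its use of strand and its treatment of multiply mapped reads are not given in the sources used here. RPKM was used as deposited, and 0 columns were left unassigned.

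The members, the gene lists and the limits of 3-fold and 2 RPKM were chosen with earlier results of these data known. Because the choice used all 5 libraries, no test was applied. Differences are means of log2(RPKM + 1), and folds of low genes are understated on this scale. Gene types, coordinates and sequences are from RefSeq TAIR10.1, whose nuclear chromosomes are those of TAIR10, and 32835 genes matched. Depth was estimated from tRNA genes of under 20 reads, of which 95.0 to 98.0% of values came out as whole reads within 0.05. Reads of members are whole numbers on the annotated exon length, or else the smallest whole numbers that give the ratios between libraries ("at least"). Copies were searched with blastn (BLAST+ 2.17.0, e-value 1e-05). Genes were named by the ratio of lowest to highest value with 1 RPKM added (10 per direction), mean RPKM (5), nearness to the limits (3 on each side) and the lists. Genes outside these, including all further members, relatives, partners and copies, were chosen after their values were seen. Alternatives were other folds, floors, scalings, a pseudocount of 0.1 RPKM, 20 estimated reads, a replicate block and each library left out. Python 3.11.15, pandas 2.3.3, NumPy 2.4.6, SciPy 1.17.1 and matplotlib 3.10.9 were used, and the selection was tested on simulated data.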

Additional observations from a re-analysis of the deposited data

How the results depend on the processing

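With limits of 2-fold, 102 genes were higher in Col × Ler and 31 in Ler × Col, and with 5-fold 10 and 6. A floor of 1 RPKM gave 39 and 26 genes, of 5 RPKM 28 and 3, and no floor beyond a value above 0 gave 43 and 84. Adding 1 RPKM before the ratio left 21 and 6 genes. Scaling to the upper quartile of genes above 0 in every library gave 21 and 28 genes, of which 20 and 6 were members, and quantile normalization gave 44 and 17. At least 20 reads in every library of the higher cross, estimated on the annotated exon length, left 35 and 6 genes, without AT2G07756 and *MIR166d*. By the smallest whole numbers, AT3G28899 had at least 7 reads in replicate 2 of Col × Ler. AT4G07408 had at least 12 and 15 reads in the Col × Ler libraries by that count. With each library left out, the counts were 40 to 306 with Col × Ler higher and 12 to 484 with Ler × Col higher, and the median log2 differences of the kept members were 2.19 to 2.56 and -2.49 to -2.09.

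The median log2 differences, 2.42 and -2.29, became 3.16 and -4.36 with a pseudocount of 0.1 RPKM, 2.15 and -2.47 with upper-quartile scaling, and 2.19 and -1.85 with quantile normalization. Upper-quartile scaling moved the median of all detected genes to -0.23, against 0.10. All 43 genes kept their sign under these settings, as their selection on non-overlapping values makes likely. A replicate block over same-numbered libraries, which were paired by their number alone, gave 328 and 35 genes and medians of 2.41 and -2.49, without replicate 1 of Ler × Col. The libraries numbered 2 also listed the most genes at 0, 12393 and 10800. Pairing by the numbers of the sample titles, an alternative chosen after the data were seen, gave 444 and 83 genes. Deviations from the mean of the cross correlated at r = 0.44 for the libraries numbered 2 and at 0.02 for those numbered 3. For replicate 3 of Col × Ler with replicates 1 and 2 of Ler × Col, r was 0.31 and -0.44. Because Col × Ler has only 2 libraries, their deviations mirror each other, and these r values are not independent. The shares of pseudogenes (40.0%) and of the chromosome 2 stretch (25.7%) became 18.5% and 7.61% without replicate 1 of Ler × Col, an alternative chosen after the data were seen. The share of protein-coding genes, 41.9% over both directions, was 48.4% with 5 RPKM and 43.9% with 20 reads. The causes of these shifts were not tested. Few libraries, low reads and unresolved strand and copies limit every value of a single gene.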
